A study of Mus musculus with 26 samples.

Results

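Common lymphoid progenitors (CLP) of mouse bone marrow were compared with lymphoid-primed multipotent progenitors (LMPP), the population from which they arise. The comparison takes the arrays whose titles name these populations, 3 CLP and 4 LMPP arrays, which are 7 of the 26 arrays in the series. All 21789 probe sets that name 1 gene were read, and the 19938 genes they name were each tested with the brightest probe set. The study sorted stem and progenitor cells from bone marrow of mice carrying the reporter Gata1-EGFP Tg/+ at 8 to 15 weeks of age, a genotype shared by every group used here, and hybridised their RNA to Affymetrix Mouse Gene 1.1 ST arrays. Gata1 is a transcription factor of megakaryocytes, red cells, mast cells and eosinophils, and the reporter marks cells in which its regulatory sequence is active.

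CLP were sorted as Lin- and B220- cells with low Sca1 and low cKit that stained for Flt3 and IL-7Ra. LMPP were sorted as Lin-, cKit+, Sca1+ and CD150- cells with high Flt3 that did not express the reporter. A pair of further reporter-negative populations serves for comparison, each with 3 arrays. PreGM GFP- are granulocyte and macrophage precursors gated as Lin-, cKit+ and Sca1- without CD41, FcgRII/III, CD150 or CD105, and HSC GFP- are stem cells gated as Lin-, cKit+, Sca1+ and CD150+ without Flt3. The gates for CLP and LMPP thus differ in cKit, Sca1, IL-7Ra and the range of Flt3, and the labels name B220 for CLP alone and CD150 and the reporter for LMPP alone. The genes behind these gates (Kit, Ly6a, Il7r, Flt3, Ptprc, Slamf1 and Gata1) therefore cannot serve as independent results. The labels do not say whether arrays of a group came from separate animals or sorts, and the p-values therefore rest on a spread that may be technical only.

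LMPP are progenitors that have lost most potential for megakaryocytes and red cells but can still give rise to lymphoid, neutrophil and monocyte lineages. CLP follow when signals through Flt3 and the interleukin 7 receptor, together with E proteins and Ikaros, favour the lymphoid fates, and they can give rise to B cells, T cells, innate lymphoid cells and some dendritic cells. In those CLP that lean to the B lineage, Ebf1, Foxo1 and Pax5 come on in order, recombination of the immunoglobulin heavy chain locus begins, and the surrogate light chain is made ahead of the pre-B cell receptor.

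The values are log2 signals that the authors normalised with the robust multi-array average (RMA), and a difference of 1 is a doubling of signal. The median of all values was 6.61, and it serves below as a rough mark of low signal. No background level was measured, so a level below or above it does not by itself show a gene to be silent or expressed. Array medians in the series ran between 6.42 and 6.70. Over all genes, arrays within the CLP or the LMPP group correlated at 0.9632 to 0.9843, and CLP arrays correlated with LMPP arrays at 0.9504 to 0.9712. The number of arrays limits the precision.

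The sorting markers set the frame. Il7r, the interleukin 7 receptor alpha chain used in the CLP gate, gave 9.74, 9.72 and 10.36 on the CLP arrays, against 6.48, 5.55, 6.60 and 6.53 on the LMPP arrays. Kit, the stem cell factor receptor, gave 7.63, 7.79 and 9.10 on the CLP arrays, against 10.29, 10.18, 10.31 and 10.30 on the LMPP arrays. Both follow the gates, with no overlap between the groups, and the third CLP array kept more Kit than the other CLP arrays. Flt3, present in both gates, gave 11.09, 10.80 and 11.50 on the CLP arrays and 11.24, 11.22, 11.64 and 11.64 on the LMPP arrays, and the groups overlapped. The difference in Flt3 was -0.31 ± 0.25 (SE) with an adjusted p of 0.786, and its 95% interval ran -0.83 to 0.22. Gata1 was at 6.41 ± 0.16 in CLP (SD, n = 3) and 6.56 ± 0.09 in LMPP (SD, n = 4), which is around the median of all values in both, and Slamf1, which encodes CD150, was lower still at 4.90 ± 0.07 and 4.90 ± 0.21. The remaining markers of the gates, Ptprc (-0.11), Eng (-0.32), Fcgr2b (0.28), Fcgr3 (0.27) and Itga2b (0.19), did not pass, and Ly6a, which encodes Sca1, is not analysed here.

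Of the 19938 genes, 314 passed the test between CLP and LMPP (limma, all 26 arrays in 1 fit, Benjamini-Hochberg adjusted p under 0.05 over all genes), which is 1.57% of the genes tested. In CLP 165 genes were higher (0.828%) and 149 were lower (0.747%), and 92 and 96 of these differed by at least 1 log2 unit. The shares of 0.828% and 0.747% are the background for every list count against LMPP given below. The lists were chosen with earlier results of these data known, so a count above these shares is a description and no independent test. The median difference over all genes was 0.04, so the groups were centred alike. Without any adjustment 2015 genes had a p under 0.05. Leaving out single arrays gave 108 to 210 higher and 91 to 167 lower genes. The count of higher genes was 108 without the second CLP array, and that of lower genes was 91 without it. All CLP arrays lay above all LMPP arrays for 6.7% of the genes and below them for 4.14%.

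**Figure D1:**
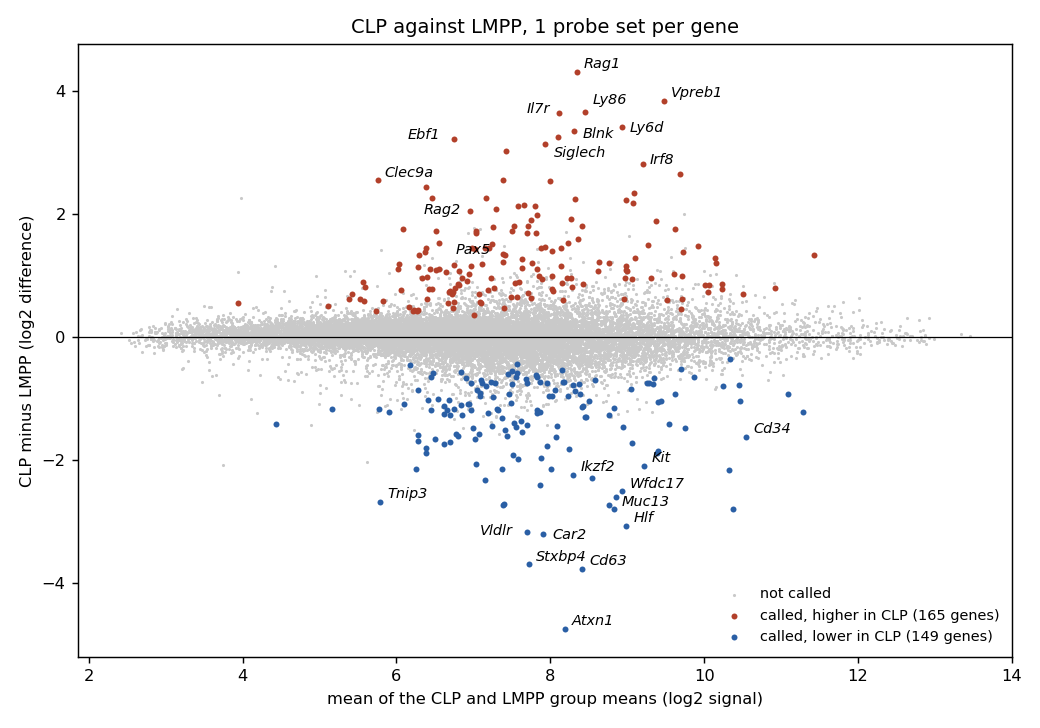
Each point is a gene, with the mean of its CLP and LMPP levels on the x axis (log2 signal) and the CLP minus LMPP difference on the y axis (log2). Red points are the 165 genes called higher in CLP and blue points the 149 called lower, and the differences reach 4.32 for Rag1 and -4.75 for Atxn1.

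Both recombinase genes were higher in CLP. Rag1, which with Rag2 cuts the DNA at antigen receptor loci, gave 9.96, 10.43 and 11.11 on the CLP arrays, against 6.06, 5.90, 6.20 and 6.57 on the LMPP arrays. It was below the median of all values on every LMPP array and well above it on every CLP array. The difference of 4.32 ± 0.23 (SE, adjusted p 3.93e-11) was the largest rise among the genes named by rule. Rag2 gave 7.82, 7.89 and 8.25 on the CLP arrays and 6.32, 5.43, 6.02 and 5.94 on the LMPP arrays, a difference of 2.05 ± 0.19 (SE, adjusted p 2.27e-07). Rag1 stayed at 6.26 in PreGM GFP- and 5.67 in HSC GFP-.

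The rest of the recombination machinery did not move in step with Rag1 and Rag2. Dntt, the terminal transferase that adds nucleotides at the joints, was high in both groups, at 11.63, 11.75 and 12.24 on the CLP arrays and 11.22, 11.14, 11.67 and 11.74 on the LMPP arrays, with overlap. Its difference was 0.43 ± 0.20 (SE, adjusted p 0.448). Dntt was 10.18 in PreGM GFP- and 5.66 in HSC GFP-, and the 95% interval of the CLP minus LMPP difference ran 0.03 to 0.84. Of the 14 measured genes on the V(D)J recombination list, Rag1 and Rag2 passed and no member was lower, and the median difference was 0.27. The end-joining genes Lig4 (0.40), Xrcc4 (-0.25), Prkdc (-0.20) and Nhej1 (0.56) did not pass, and neither did Xrcc5, which encodes Ku80, at -0.71 or Xrcc6, which encodes Ku70, at 0.59. The last was above LMPP on every CLP array with an adjusted p of 0.167. The remaining members, Poll (0.25), Polm (0.20), Hmgb1 (0.24), Hmgb2 (0.15) and Paxx (0.28), did not pass. None of 20 measured constant and variable gene segments of the antigen receptor loci passed (4 with an unadjusted p under 0.05), and Ighm gave 6.93 ± 0.08 in CLP and 6.92 ± 0.15 in LMPP (SD, n = 3 and n = 4).

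Rag1 and the surrogate light chain genes are known targets of E proteins, whose binding site is the E-box. The promoters of 5 genes that rose and that hold the E-box CAGGTG are shown to place it. Promoters of risen genes without the site are not shown. The site was searched on both strands and is written in capitals, where CACCTG is the same site on the other strand. The promoters run 250 bases before to 50 bases after the annotated start, from RefSeq on GRCm38.p6.
Rag1 promoter, chr2:101649483-101649782 (minus strand): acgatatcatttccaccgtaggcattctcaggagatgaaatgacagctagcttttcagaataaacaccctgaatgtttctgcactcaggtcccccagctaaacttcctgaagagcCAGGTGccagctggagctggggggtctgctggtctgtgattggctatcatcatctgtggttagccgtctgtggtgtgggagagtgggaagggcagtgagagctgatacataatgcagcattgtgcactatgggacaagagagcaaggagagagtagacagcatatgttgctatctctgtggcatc
Igll1 promoter, chr16:16863936-16864235 (minus strand): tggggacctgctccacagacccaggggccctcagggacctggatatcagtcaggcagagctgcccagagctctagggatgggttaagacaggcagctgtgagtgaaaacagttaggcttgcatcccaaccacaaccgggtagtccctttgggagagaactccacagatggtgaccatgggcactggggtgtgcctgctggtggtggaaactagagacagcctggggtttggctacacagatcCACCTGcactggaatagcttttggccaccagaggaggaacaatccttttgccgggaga
Vpreb1 promoter, chr16:16869206-16869505 (minus strand): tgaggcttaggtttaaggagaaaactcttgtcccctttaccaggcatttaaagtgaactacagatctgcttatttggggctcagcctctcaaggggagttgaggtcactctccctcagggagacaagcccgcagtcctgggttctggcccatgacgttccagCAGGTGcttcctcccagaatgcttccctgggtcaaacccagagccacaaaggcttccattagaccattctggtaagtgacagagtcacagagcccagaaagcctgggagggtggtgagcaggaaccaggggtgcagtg
Blnk promoter, chr19:40994172-40994471 (minus strand): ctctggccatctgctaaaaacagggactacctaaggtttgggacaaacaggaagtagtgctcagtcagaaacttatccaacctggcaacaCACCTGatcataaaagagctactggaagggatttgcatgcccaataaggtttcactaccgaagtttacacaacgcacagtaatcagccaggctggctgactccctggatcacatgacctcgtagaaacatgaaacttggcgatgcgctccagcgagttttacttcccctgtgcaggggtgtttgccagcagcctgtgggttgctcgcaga
Cd79a promoter, chr7:24897247-24897546 (plus strand): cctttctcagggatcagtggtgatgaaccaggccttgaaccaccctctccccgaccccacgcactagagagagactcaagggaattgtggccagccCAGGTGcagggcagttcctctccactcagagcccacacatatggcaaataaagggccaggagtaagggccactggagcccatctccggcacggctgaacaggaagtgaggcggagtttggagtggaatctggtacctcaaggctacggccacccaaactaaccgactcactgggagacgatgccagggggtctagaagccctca
CAGGTG occurred in 20.2% of all 32851 promoters of this length and in 19.6% of those of the tested genes. Among genes higher in CLP 21.4% of promoters held it, and among genes lower in CLP 15.9%. In the pre-B receptor and B cell signalling list 14 of 21 promoters (66.7%, from 12 of 18 genes with an entry) held it, among them the 4 genes of the list that are shown. Rag1, on other lists, held it too. It stood in 4 of 7 list genes higher in CLP that had an entry, which are the 4 shown, and not in Cnn3, Myl4 or Vpreb3. It stood in 8 of 11 other list genes with an entry, and it overlapped another motif searched in 7 of all promoters. Of 3 other motifs searched the same way, the core of the Ebf1 site, CCCNNGGG, occurred in 13.7% of all promoters, 17.9% of those of genes higher in CLP, 18.2% of those of genes lower in CLP and 28.6% of those of the list. The E-box CAGCTG gave 16.3%, 19%, 17.1% and 14.3%, and the PU.1 core GAGGAAG 13.6%, 11.9%, 19.4% and 28.6% in the same order. A match describes the letters in the window only.

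Several transcription factors of the B lineage rose. Of 20 measured members 8 were higher and none lower in CLP, against 0.828% higher among all genes, and the median difference was 0.38. Ebf1, the factor that specifies the B lineage, gave 8.11, 7.17 and 9.81 on the CLP arrays, against 5.17, 5.24, 5.43 and 4.70 on the LMPP arrays. The CLP arrays differed widely among themselves, with the third the highest, yet all were above every LMPP array. The difference was 3.23 ± 0.39 (SE, adjusted p 1.48e-05), and it was 2.51 without the third CLP array. Pax5, which holds cells in the B lineage, gave 7.93, 7.65 and 8.60 on the CLP arrays and 6.65, 6.88, 6.58 and 6.69 on the LMPP arrays. It rose by 1.36 ± 0.16 (SE, adjusted p 7.55e-06), with the same order of the CLP arrays as Ebf1. Because these are sorted bulk populations, a change in the share of cells that express a gene and a change in RNA per cell cannot be told apart.

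Irf8, which serves B cells and dendritic cells alike, rose by 2.82 ± 0.31 (SE, adjusted p 3.71e-06) but was lowest on the third CLP array (10.93, 11.03 and 9.86 on the CLP arrays, against 7.52, 8.13, 7.86 and 7.65 on the LMPP arrays). Smaller rises were called for Spib (0.78), Lef1 (0.70), Foxo1 (0.66), Irf4 (0.58) and Bach2 (0.44), factors of B cell development and function. Irf4 (5.87 in CLP and 5.29 in LMPP) and Bach2 (6.50 and 6.06) were below the median of all values in both groups. On the CLP arrays Spib gave 7.34, 6.47 and 6.73 and Irf4 6.21, 5.74 and 5.66, both highest on the first and unlike Ebf1. Foxo1 gave 7.48, 8.05 and 8.14 on the CLP arrays, against 7.34, 7.14, 7.34 and 7.12 on the LMPP arrays, which do not overlap. These small calls rest on the whole set of arrays. Foxo1 lost its call without the second or the third CLP array or any LMPP array, and Bach2 without any array of either group. Irf4 lost it without the first or the second CLP array or the first, the third or the fourth LMPP array, Spib without the first CLP array or the second or the third LMPP array, and Lef1 without the second or the third CLP array or the first LMPP array. The adjusted p then reached at most 0.221 for Foxo1, 0.141 for Bach2, 0.231 for Irf4, 0.203 for Spib and 0.0993 for Lef1, and every difference stayed positive. The number of B lineage factors called was 4 or 5 when any 1 array was left out.

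The other B lineage factors did not pass, and several of them were above the median of all values in LMPP as well. Mef2c gave 10.47 ± 0.30 in CLP and 10.26 ± 0.29 in LMPP, with a 95% interval for the difference of -0.30 to 0.73. Aff3 differed by -0.01 (interval -0.62 to 0.59), Pou2f2 by 0.14 (-0.22 to 0.49) and Ets1 by 0.27 (-0.11 to 0.66). Tcf3, which encodes the E protein E2A, differed by 0.23, with an interval of -0.11 to 0.57 and an adjusted p of 0.735. Foxp1 at 0.42 (adjusted p 0.151) was above LMPP on every CLP array without passing, and Pou2af1 at 0.63 (adjusted p 0.0902) overlapped. Ikzf3 (0.08), Zbtb18 (0.35), Rfx5 (-0.26), Bhlhe41 (0.05) and Nfatc1 (0.004) did not pass either. Ikzf3, an Ikaros family member of later B cells, and Bhlhe41 were below the median of all values in both groups, and Pou2af1 was below it in LMPP.

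The pre-B receptor and B cell signalling list held the most calls. Of 24 measured members 10 were higher, against 0.828% of all genes, and 1 was lower, with a median difference of 0.60. The list also holds genes that are not parts of the receptor or its signalling, and Ly6d, Cnn3, Cecr2 and Myl4 among the rises are such genes. The count therefore depends on how the list was drawn up, and earlier results of these data were known then. Blnk, the adaptor that couples the pre-B receptor to its kinases, gave 9.74, 9.92 and 10.29 on the CLP arrays, against 6.65, 6.48, 6.62 and 6.74 on the LMPP arrays. The CLP arrays were close together and far above LMPP, a rise of 3.36 ± 0.23 (SE, adjusted p 2.87e-09). Ly6d, a surface protein that marks CLP leaning to the B lineage, gave 10.93, 10.95 and 10.06 on the CLP arrays and 7.15, 7.44, 7.34 and 6.97 on the LMPP arrays. It rose by 3.42 ± 0.18 (SE, adjusted p 3.93e-11) and was, unlike Ebf1, lowest on the third CLP array.

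The surrogate light chain genes came on unevenly. Igll1, which encodes lambda 5, gave 8.49, 7.93 and 9.21 on the CLP arrays and 6.89, 6.83, 6.85 and 6.81 on the LMPP arrays, a rise of 1.70 ± 0.21 (SE, adjusted p 1.62e-05). Vpreb1 reached 11.75, 9.74 and 12.71 on the CLP arrays, against 7.64, 7.36, 9.12 and 6.10 on the LMPP arrays. Both groups were widely spread, and the difference of 3.84 ± 0.92 (SE, adjusted p 0.0309) lost its call without the first or the third CLP array or the first, the second or the fourth LMPP array, with an adjusted p of at most 0.152. Over all fits without 1 array it ran between 3.19 and 4.67. Vpreb1 was 10.85 ± 1.48 in PreGM GFP- (SD, n = 3), and the CLP minus PreGM GFP- difference was 0.55 ± 0.98 (SE, adjusted p 0.956). Vpreb2, at 7.58 ± 0.10 in CLP and 7.30 ± 0.13 in LMPP, is a near copy of Vpreb1 and probes may not separate the pair fully. Vpreb3 rose by 1.45 ± 0.22 (SE, adjusted p 0.000333).

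Of the receptor's signalling chains, Cd79a passed narrowly (0.89, adjusted p 0.0444) at levels below the median of all values in both groups, and lost its call without the second or the third CLP array or the second or the fourth LMPP array. Cd79b gave 8.01, 7.99 and 8.60 on the CLP arrays and 7.44, 7.54, 7.98 and 7.33 on the LMPP arrays and did not pass (0.63, adjusted p 0.493). The kinase gene Blk rose by 0.96 ± 0.14 (SE, adjusted p 0.000143). The kinase genes Syk (0.21, interval -0.21 to 0.63) and Btk (-0.38, interval -0.80 to 0.04) and the phospholipase gene Plcg2 (-0.12, interval -0.60 to 0.36) did not pass. All of the latter stood above the median of all values in LMPP. Cnn3, a calponin, rose by 1.45 ± 0.22 (SE), Cecr2, a chromatin remodelling factor, by 1.34 ± 0.16, and Myl4, a myosin light chain, by 2.54 ± 0.36. Myl4 gave 8.54, 10.06 and 9.19 on the CLP arrays, against 6.46, 6.50, 7.31 and 6.62 on the LMPP arrays. The phosphatase gene Ptpre fell by 0.92 ± 0.14 (SE, adjusted p 0.000255). The mature B cell genes Ms4a1 (4.46 ± 0.19 in CLP and 4.48 ± 0.12 in LMPP), Cd22 (6.33 ± 0.27 and 6.07 ± 0.12) and Bank1 (6.16 ± 0.42 and 5.65 ± 0.36) were below the median of all values in both groups, and none of the 11 measured members of the plasma and mature B list passed (0 with an unadjusted p under 0.05). Cd24a (0.06), Spn (0.01), Cd37 (0.81), Cd72 (0.29) and Fcrla (0.57) did not pass.

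**Figure D2:**
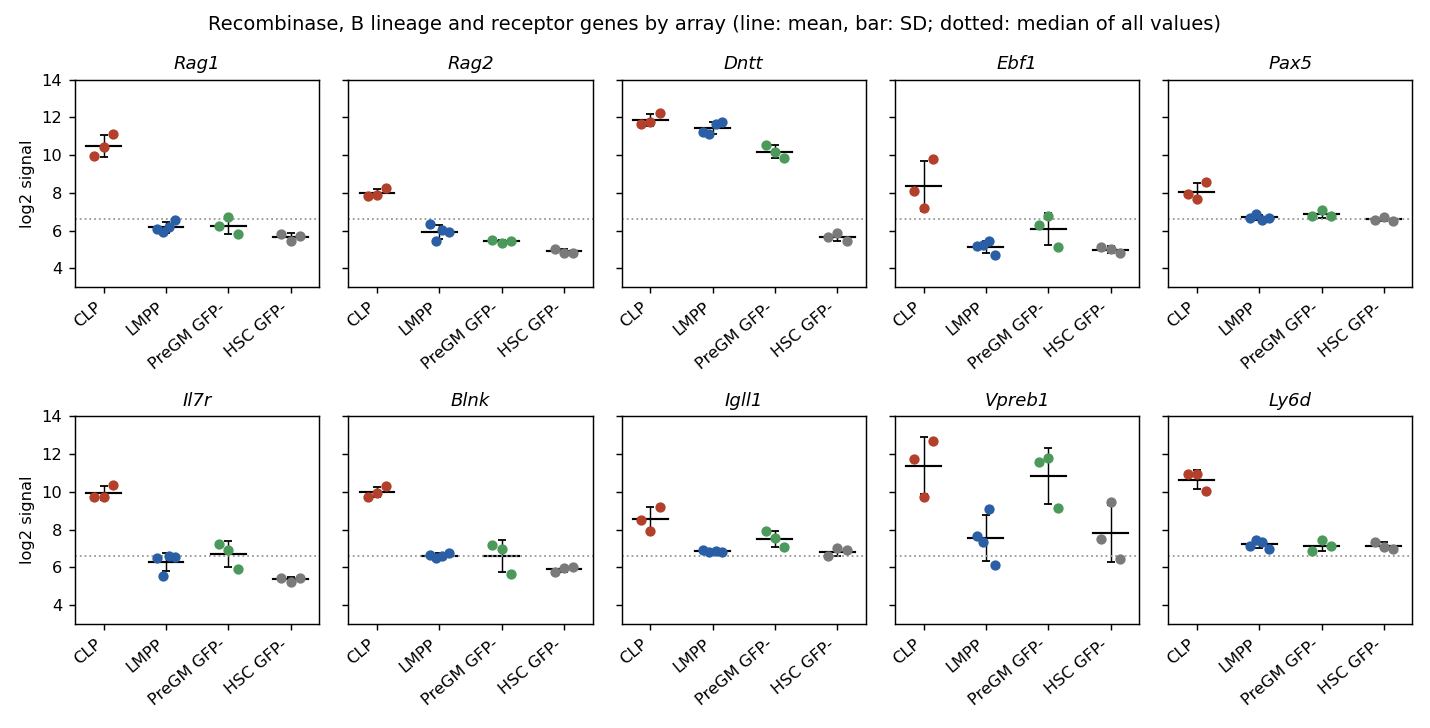
Log2 signal of 10 genes by array in CLP, LMPP, PreGM GFP- and HSC GFP-, with group means (lines), SDs (bars) and the median of all values (dotted, 6.61). Rag1, Il7r, Blnk and Ly6d are high in CLP alone among these groups, Dntt is as high in LMPP, and Vpreb1 is also high in PreGM GFP-.

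In the interleukin 7 pathway the change lay in the receptor chain used for the sort. Of 22 measured members of the gamma chain cytokine receptor list, Il7r passed and no other did, and the median difference was 0.01. The alpha and beta chains for other cytokines of the family differed by 0.01 (Il2ra), 0.33 (Il2rb), -0.39 (Il4ra), 0.13 (Il9r), 0.08 (Il21r) and -0.32 (Il15ra), with Il2ra at 4.83 in CLP and 4.83 in LMPP, below the median of all values. The thymic stromal lymphopoietin receptor Crlf2 differed by 0.12 (interval -0.06 to 0.30). Downstream, Jak1 differed by -0.43 (interval -0.79 to -0.06), Stat5a by 0.01 (-0.33 to 0.35) and Stat5b by -0.52 (-1.09 to 0.06). Stat5b was lower on every CLP array than on every LMPP array, without passing. The feedback genes Socs1 (0.21), Socs2 (0.29), Socs3 (0.01) and Cish (0.06) and the survival kinases Pim1 (-0.13) and Pim2 (-0.19) did not pass, nor did Tyk2 (0.15), Stat3 (-0.37), Stat6 (-0.15), Pik3r1 (-0.21) or Pik3cd (-0.05). The common gamma chain gene Il2rg and its kinase Jak3 are not analysed here.

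Most genes of the lymphoid priming list were not called at this step. Of 24 measured members, 4 were higher (Il7r, Rag1, Cd79a and Evl) and 1 was lower (Ikzf2) in CLP, with a median difference of 0.23. Satb1, a chromatin organiser of lymphoid progenitors, was 10.80 ± 0.21 in CLP and 10.98 ± 0.18 in LMPP (SD, n = 3 and n = 4), against 7.64 in HSC GFP-. Bcl11a, needed for lymphoid development, was 10.49 ± 0.08 in CLP and 10.31 ± 0.24 in LMPP, with a 95% interval for the difference of -0.09 to 0.45. Tcf4, an E protein of plasmacytoid dendritic cells, differed by 0.45 (interval -0.06 to 0.96). Evl, an actin regulator, rose by 0.81 ± 0.14 (SE, adjusted p 0.00147).

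The PreGM GFP- population gives the other branch from LMPP. CLP minus PreGM GFP- equals the difference between the lymphoid and the myeloid step, since the LMPP level cancels, and 305 genes (1.53%) passed it, 148 higher (0.742%) and 157 lower (0.787%) in CLP. Of the lymphoid priming list 13 members were higher in CLP than in PreGM GFP- and 1 was lower, with a median difference of 0.95. For Dntt the CLP minus PreGM GFP- difference was 1.69 ± 0.21 (SE, adjusted p 2.8e-05), for Bcl11a 1.32 ± 0.14 (2.65e-06), for Ikzf1 0.91 ± 0.16 (0.00193) and for Flt3 1.11 ± 0.27 (0.0375). Thus these genes were not called between CLP and LMPP, and differed between the branches. Among them Flt3 is a gene of the CLP and LMPP gates and no independent result. For Rag1 the CLP minus PreGM GFP- difference was 4.24 ± 0.24 (1.98e-10), for Blnk 3.39 ± 0.25 (1.78e-08), for Ly6d 3.50 ± 0.20 (1.98e-10) and for Ebf1 2.29 ± 0.41 (0.00233). Of 20 measured B lineage factors 5 were higher in CLP than in PreGM GFP- and none lower. In the pre-B receptor and B cell signalling list 8 of 24 were higher and 1 lower. Foxo1, Lef1, Spib, Irf4, Cd79a, Vpreb1 and Vpreb3, all called against LMPP, did not pass against PreGM GFP-. This comparison shares the CLP arrays with that against LMPP, and its counts were 98 higher genes without the third PreGM GFP- array and 99 lower genes without the first.

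E proteins, which drive lymphoid genes, and the Id proteins that block them showed no call of their own. Besides Tcf3, Tcf12 differed by 0.01 (interval -0.40 to 0.43), Id1 by -0.001 (-0.24 to 0.24), Id3 by 0.31 (0.07 to 0.56) and Id4 by 0.11 (-0.16 to 0.38). Id2, the Id protein of innate lymphoid and dendritic cells, gave 7.13, 7.76 and 6.17 on the CLP arrays and 6.48, 5.86, 5.65 and 6.24 on the LMPP arrays, a difference of 0.96 ± 0.35 (SE) with an adjusted p of 0.253. Hes1 (0.25), Lyl1 (-0.06), Tal1 (-0.11) and Hhex (0.04) did not pass. The single call among the 12 measured members of the Id and E protein list was the fall of Lmo2, described with the stem cell genes.

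In the Ikaros family 1 of 5 measured members changed. Ikzf2, which encodes Helios, gave 7.26, 7.32 and 6.97 on the CLP arrays, against 9.12, 9.46, 9.75 and 9.35 on the LMPP arrays. It fell by 2.24 ± 0.20 (SE, adjusted p 1.07e-07), with no overlap. Ikzf1, which encodes Ikaros itself, was 10.13, 10.27 and 10.54 on the CLP arrays and 9.90, 9.93, 10.23 and 10.01 on the LMPP arrays, a difference of 0.29 ± 0.15 (SE, adjusted p 0.544). Ikzf2 stayed at 9.18 ± 0.23 in PreGM GFP- (SD, n = 3), and the CLP minus PreGM GFP- difference was -1.996 ± 0.21 (SE, adjusted p 2.65e-06). Ikzf4 (0.11) and Ikzf5 (-0.17) did not pass.

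Few T lineage genes passed. Of 24 measured members, Cd28 was higher, none was lower and the median difference was 0.12. Cd28, a costimulatory receptor, gave 7.66, 7.52 and 6.79 on the CLP arrays, against 5.79, 5.86, 5.86 and 5.66 on the LMPP arrays, a rise of 1.53 ± 0.17 (SE, adjusted p 3.72e-06). Gata3 (6.14 ± 0.27 in CLP and 6.41 ± 0.23 in LMPP) and Cd3g (5.48 ± 0.14 and 5.51 ± 0.04) were below the median of all values, and Bcl11b (6.80 ± 0.08 and 6.72 ± 0.11) was near it. Notch1, the receptor that starts the T lineage, gave 8.10, 8.15 and 9.54 on the CLP arrays and 7.81, 7.99, 8.36 and 8.20 on the LMPP arrays and did not pass (0.51, adjusted p 0.44). Cd3e differed by 0.16, and Tcf7 and Lck are not analysed here. Ccr9, the homing receptor for the thymus, differed by 0.43 (interval 0.02 to 0.84).

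In the list of natural killer and innate lymphoid genes 4 of 27 measured members were higher, against 0.828% of all genes, and none lower. Klrd1, a killer lectin receptor also found on dendritic precursors, gave 8.53, 8.14 and 6.16 on the CLP arrays, against 5.10, 4.99, 4.82 and 5.74 on the LMPP arrays. It rose by 2.45 ± 0.38 (SE, adjusted p 0.000495), and the difference ran between 1.99 and 3.17 when single arrays were left out, highest without the third CLP array. Cd7 gave 9.48, 9.19 and 7.15 on the CLP arrays and 6.92, 7.35, 6.58 and 6.37 on the LMPP arrays, and its call (1.80, adjusted p 0.00585) was lost without the first or the second CLP array. The interleukin 18 receptor gene Il18r1 was more even, at 8.83, 8.37 and 8.79 on the CLP arrays against 7.32, 6.08, 7.12 and 8.26 on the LMPP arrays, with a rise of 1.47 ± 0.32 (SE, adjusted p 0.014) that lost its call without the first or the third CLP array. Klrk1 passed at 0.61 with an adjusted p of 0.0475 and overlapping groups, and lost its call without the first or the second CLP array or the first, the third or the fourth LMPP array. Klrd1, Cd7, Il18r1 and Klrk1 each lost the call when the spread came from the CLP and LMPP arrays alone. The defining genes Ncr1 (5.03 ± 0.23 in CLP and 4.99 ± 0.14 in LMPP), Klrb1c (4.35 ± 0.23 and 4.25 ± 0.21) and Il2rb (6.02 ± 0.22 and 5.69 ± 0.16) were below the median of all values in both groups. The list held 1 call (without the first CLP array) to 4 calls when single arrays were left out, with 1 lower call without the second LMPP array.

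Part of the dendritic and monocyte genes rose beside the B lineage genes. Of 21 measured dendritic genes 9 were higher and none lower, with a median difference of 0.60. Of 27 measured monocyte and macrophage genes 8 were higher and none lower, with a median of 0.58. Among all genes 0.828% were higher. Siglech, a lectin of plasmacytoid dendritic cells, gave 9.95, 10.13 and 8.43 on the CLP arrays, against 6.25, 6.40, 6.37 and 6.41 on the LMPP arrays. It rose by 3.14 ± 0.24 (SE, adjusted p 1.9e-08). Ly86, which encodes MD-1, gave 10.93, 10.81 and 9.13 on the CLP arrays and 7.04, 6.82, 6.58 and 6.03 on the LMPP arrays, a rise of 3.67 ± 0.32 (SE, adjusted p 1.07e-07). Cox6a2, a mitochondrial subunit gene of plasmacytoid dendritic cells, rose by 2.34 ± 0.23 (SE, adjusted p 9.57e-07), Mpeg1, a pore-forming protein of phagocytes, by 2.65 ± 0.37 (0.000112), and Kmo, an enzyme of tryptophan breakdown, by 3.26 ± 0.44 (7.38e-05). Itgax, which encodes CD11c, rose by 1.46 ± 0.24 (SE, adjusted p 0.00107) but unevenly. It gave 8.25, 8.57 and 6.83 on the CLP arrays, against 6.55, 6.17, 6.51 and 6.49 on the LMPP arrays. With the third CLP array as the only CLP array the Itgax difference was 0.40. Kmo, and Ctsh described next, were on neither list and are named among the 15 largest rises.

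These genes were not even across the CLP arrays. Clec9a, a receptor of dendritic cells and their precursors, gave 9.14, 7.21 and 4.74 on the CLP arrays, against 4.38, 4.63, 4.47 and 4.44 on the LMPP arrays. The third CLP array stood barely above LMPP. Ctsh, a lysosomal protease, gave 10.09, 9.95 and 6.76 on the CLP arrays and 6.36, 5.75, 5.82 and 5.70 on the LMPP arrays, and F13a1, a coagulation factor chain of monocytes, gave 9.33, 9.69 and 6.93 on the CLP arrays and 6.58, 6.38, 6.66 and 6.44 on the LMPP arrays. Cybb, the oxidase chain of phagocytes, gave 9.80, 9.20 and 6.99 on the CLP arrays and 6.20, 6.24, 6.11 and 5.87 on the LMPP arrays. For each of these the first and second CLP arrays carried the rise. The differences were 2.55 ± 0.62 (SE, adjusted p 0.0338) for Clec9a, 3.03 ± 0.52 (0.00143) for Ctsh, 2.13 ± 0.39 (0.00254) for F13a1 and 2.56 ± 0.41 (0.000747) for Cybb. Each of these genes, and Itgax, lost its call when the spread came from the CLP and LMPP arrays alone. Clec9a lost its call without the first or the second CLP array or any LMPP array, and its difference was 1.50 without the first CLP array. With the third CLP array as the only CLP array, which is then assumed to vary like the other groups, the differences were 0.26 for Clec9a, 0.85 for Ctsh, 0.41 for F13a1 and 0.89 for Cybb, none of which passed, and 2.07 for Siglech and 2.51 for Ly86, which did. Fcer1g (1.92), Cd300c (1.0), Cd209a (0.98), Cd209d (0.50), Pacsin1 (0.36), Clec12a (1.08) and Cx3cr1 (0.95) were also called in the full set, and each lost its call without the first CLP array. All but Cd209a also lost it without the second CLP array, without the first LMPP array and without at least 1 other LMPP array. Fcer1g and Cx3cr1 lost it without any LMPP array. Cd300c overlapped between the groups, and Cd209d was below the median of all values in both. Klf4, a monocyte factor, rose by 0.73 ± 0.15 (SE, adjusted p 0.00749) and kept its call whichever array was left out.

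Over whole lists the same contrast appears. The median difference from the LMPP mean was 0.93, 0.76 and 0.09 on the CLP arrays for the monocyte and macrophage list and 0.75, 0.77 and 0.26 for the dendritic list. For the pre-B receptor and B cell signalling list it was 0.50, 0.52 and 1.01, and for the B lineage factors 0.25, 0.30 and 0.52. The third CLP array was thus the lowest CLP array for the monocyte and dendritic lists and the highest for the pre-B receptor list and the B lineage factors. The mean level of the monocyte and macrophage list ran between 7.30 and 8.20 on the CLP arrays and between 7.05 and 7.20 on the LMPP arrays, and that of the dendritic list between 7.73 and 8.43 on the CLP arrays and between 7.23 and 7.30 on the LMPP arrays. Without the third CLP array 12 monocyte and macrophage genes and 10 dendritic genes were higher, without the first 5 and 4, and with the third as the only CLP array 1 and 3. The part that cells of these lineages play in the CLP values was not tested. Several defining monocyte markers did not pass: Csf1r gave 8.08, 7.97 and 7.21 on the CLP arrays and 7.07, 7.17, 7.29 and 6.78 on the LMPP arrays (adjusted p 0.342), Lyz2 differed by -0.24 and Itgam by -0.46. Bst2, a marker of plasmacytoid dendritic cells, gave 9.95, 10.54 and 8.69 on the CLP arrays and 9.12, 8.96, 8.87 and 8.59 on the LMPP arrays (adjusted p 0.246).

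**Figure D3:**
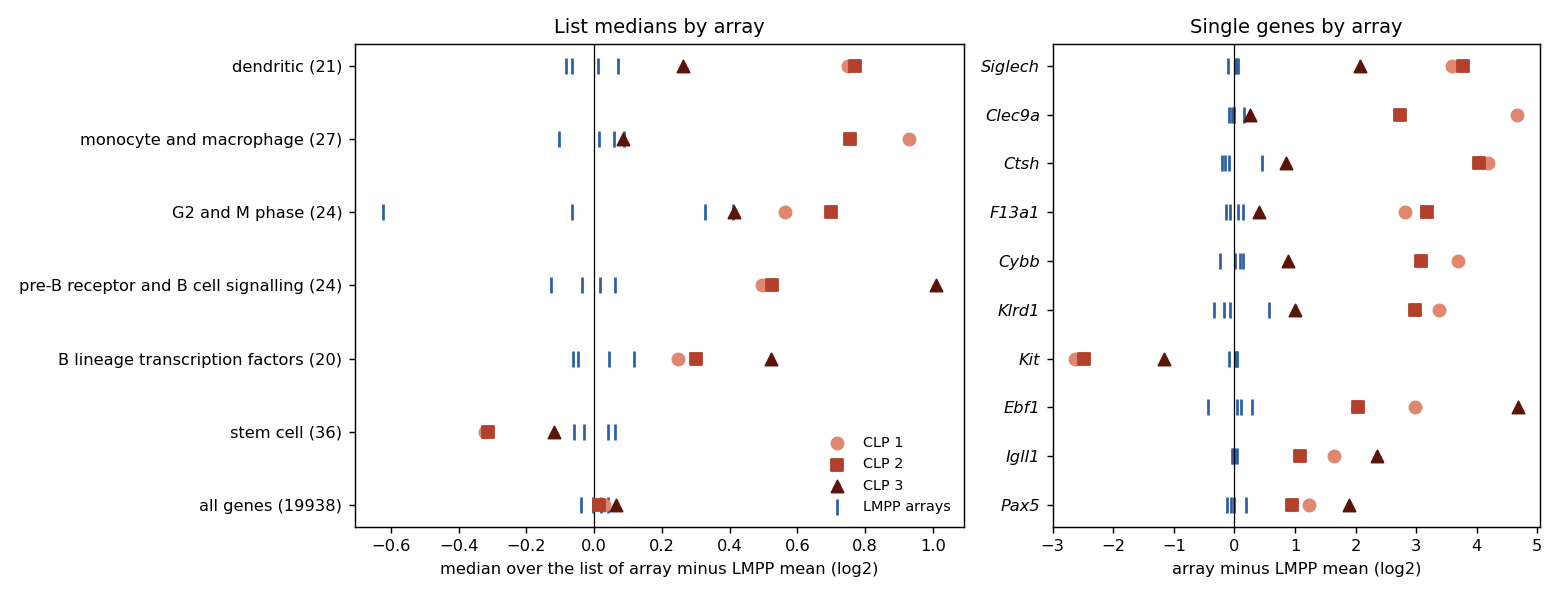
Left, the median over each list of the array's level minus the LMPP mean (log2), for the 3 CLP arrays (circle, square and triangle) and the LMPP arrays (ticks, each against the mean of the other LMPP arrays), with the number of measured genes in brackets. Right, the same difference for 10 genes, with every array set against the mean of all LMPP arrays. Among the CLP arrays the third (triangle) lies lowest for the dendritic and monocyte lists and for Clec9a, Ctsh and F13a1, and highest for the pre-B receptor list, Ebf1 and Kit.

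Ly86 and F13a1 were also high in the myeloid branch, at 9.98 ± 0.17 and 10.19 ± 0.33 in PreGM GFP- (SD, n = 3), and the CLP minus PreGM GFP- differences were 0.31 for Ly86 (interval -0.40 to 1.01) and -1.54 for F13a1 (-2.39 to -0.68), which did not pass. Siglech and Cox6a2 were not, at 6.46 ± 0.08 and 7.68 ± 0.19 in PreGM GFP-, with CLP minus PreGM GFP- differences of 3.05 ± 0.26 (SE, adjusted p 1.28e-07) and 2.57 ± 0.25 (1.09e-06). By this comparison 9 dendritic genes were higher in CLP and none lower, whereas of the monocyte and macrophage list 2 were higher and 1 lower.

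The genes of the MHC class II list did not pass (0 of 8 measured, median difference 0.35, 2 with an unadjusted p under 0.05). Cd74, the invariant chain, gave 7.38, 8.04 and 6.56 on the CLP arrays and 6.41, 6.94, 6.42 and 6.35 on the LMPP arrays, an adjusted p of 0.334.

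Among the genes that fell in CLP were genes that LMPP share with stem cells. Of 36 measured stem cell genes 9 were lower and none higher, against 0.747% lower among all genes, with a median difference of -0.27, and all CLP arrays lay below all LMPP arrays for 16 of them, against 4.14% of all genes. Hlf, a transcription factor of stem cells, gave 7.16, 7.67 and 7.54 on the CLP arrays, against 10.70, 10.41, 10.66 and 10.33 on the LMPP arrays. It fell by 3.07 ± 0.16 (SE, adjusted p 3.93e-11) and was 11.28 in HSC GFP-, so LMPP stood near the stem cell level and CLP near the median of all values. Meis1, a homeobox factor of stem cells and leukaemias, gave 8.64, 8.04 and 8.65 on the CLP arrays and 10.27, 10.13, 10.41 and 10.49 on the LMPP arrays and fell by 1.88 ± 0.24 (SE, adjusted p 3.21e-05). Lmo2, a bridging factor of the Tal1 complex, gave 8.80, 9.06 and 9.15 on the CLP arrays and 10.31, 10.53, 10.60 and 10.51 on the LMPP arrays and fell by 1.48 ± 0.12 (3.97e-08). Cd34, a sialomucin of progenitors, gave 9.45, 9.65 and 10.12 on the CLP arrays and 11.23, 11.15, 11.61 and 11.45 on the LMPP arrays and fell by 1.62 ± 0.26 (0.000768). None of these showed overlap between the groups. Angpt1, a secreted ligand of the Tek receptor, fell by 2.60 ± 0.29 (SE, adjusted p 6.86e-06), with 7.05, 7.26 and 8.33 on the CLP arrays against 10.04, 9.72, 10.28 and 10.56 on the LMPP arrays.

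Mecom (-1.09), Msi2 (-0.93), Mllt3 (-0.87) and Procr (-0.58) were also called lower. All 4 lost their calls without the first or the second CLP array. Mecom also lost it without the third CLP array or the first or the third LMPP array, Msi2 without the second, the third or the fourth LMPP array, Mllt3 without the first, and Procr without the first, the second or the fourth, with adjusted p up to 0.147, 0.242, 0.164 and 0.238. A further probe set of Mecom fell by 2.18. The stem cell list held 5 to 9 lower calls when single arrays were left out, and 4 with the third CLP array as the only CLP array. Not all of the stem cell list fell. Tal1 (-0.11, interval -0.34 to 0.12), Lyl1 (-0.06, -0.45 to 0.32) and Gfi1b (0.17, -0.17 to 0.52) did not pass, Hoxa9 fell short at -0.63 (adjusted p 0.0933) although every CLP array was below every LMPP array, and Gata2 at -0.51 likewise (0.204). Slamf1 and Tek were already below the median of all values in LMPP, at 4.90 and 5.54, with 7.15 and 7.36 in HSC GFP-.

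Of the 15 largest falls by rule, 12 were of genes on no list, and the others were Hlf and Angpt1 of the stem cell list and Car2 of the megakaryocyte and erythroid list. Cd63, a tetraspanin of endosomes and granules, gave 7.58, 5.38 and 6.61 on the CLP arrays, against 10.53, 10.55, 9.99 and 10.11 on the LMPP arrays and fell by 3.77 ± 0.30 (SE, adjusted p 2.64e-08). Car2, a carbonic anhydrase, gave 6.36, 5.80 and 6.76 on the CLP arrays and 9.79, 8.87, 9.62 and 9.74 on the LMPP arrays and fell by 3.20 ± 0.24 (1.21e-08). Vldlr, a lipoprotein receptor, gave 6.30, 5.99 and 6.05 on the CLP arrays and 9.52, 9.01, 9.41 and 9.17 on the LMPP arrays and fell by 3.17 ± 0.21 (2.2e-09). For these 3 genes the CLP arrays lay around or below the median of all values, apart from the first array for Cd63 and the third for Car2. Muc13, a membrane mucin, fell by 2.80 ± 0.23 (SE), Adgrl4, an adhesion receptor also of endothelium, fell by 2.80 ± 0.34, Gcnt2, a glycosyltransferase, by 2.73 ± 0.16, Rab38, a GTPase of lysosome-related organelles, by 2.74 ± 0.24, and Tnip3, an inhibitor of NF-kappa-B signalling, by 2.68 ± 0.31. Each of these kept its call whichever array was left out, as did Wfdc17, a whey acidic protein family member, which gave 8.38, 7.32 and 7.35 on the CLP arrays and 10.35, 10.36, 10.01 and 10.06 on the LMPP arrays and fell by 2.51 ± 0.37 (adjusted p 0.000253).

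For 3 of the 15 largest falls the probe sets of the gene disagree in size. Atxn1 fell by 4.75 ± 0.79 (SE, adjusted p 0.000951) on its brighter probe set, with 7.02, 3.88 and 6.54 on the CLP arrays against 10.48, 11.40, 11.11 and 9.27 on the LMPP arrays, and by 0.66 on the other. Stxbp4 fell by 3.70 ± 0.41 on the brighter probe set and by 1.18 on the other, and Nynrin fell by 2.72 ± 0.57 and by 0.99 and 0.40. Nynrin lost its call without the first CLP array. Samd9l gave 7.61, 6.996 and 5.37 on the CLP arrays and 8.88, 9.01, 8.96 and 9.42 on the LMPP arrays, and fell by 2.40 ± 0.59 (adjusted p 0.0355), a call lost without the second or the third CLP array or any LMPP array.

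Part of the genes that fell in CLP stayed high in the myeloid branch. Cd63 (10.44 in PreGM GFP-), Muc13 (10.66), Angpt1 (10.09) and Cd34 (11.25) stayed high in PreGM GFP-, and the CLP minus PreGM GFP- differences were -3.92 ± 0.32, -3.22 ± 0.25, -2.54 ± 0.32 and -1.51 ± 0.28 (SE), with adjusted p of 5.8e-08, 3.92e-08, 2.8e-05 and 0.00343. Hlf (8.82 in PreGM GFP-) and Vldlr (7.16) were lower in PreGM GFP- than these but still differed from CLP, by -1.36 ± 0.17 and -1.05 ± 0.23 (SE, adjusted p 3.87e-05 and 0.0138). Tnip3 (4.92), Wfdc17 (8.12), Gsta4 (6.38), Oas2 (6.91) and Msi2 (8.95) differed between the branches by -0.47, -0.44, -0.38, 0.05 and 0.21, with intervals of -1.15 to 0.21, -1.27 to 0.39, -0.998 to 0.24, -0.30 to 0.40 and -0.29 to 0.71, and none passed. Of the stem cell list 5 genes were lower in CLP than in PreGM GFP- and none higher.

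**Figure D4:**
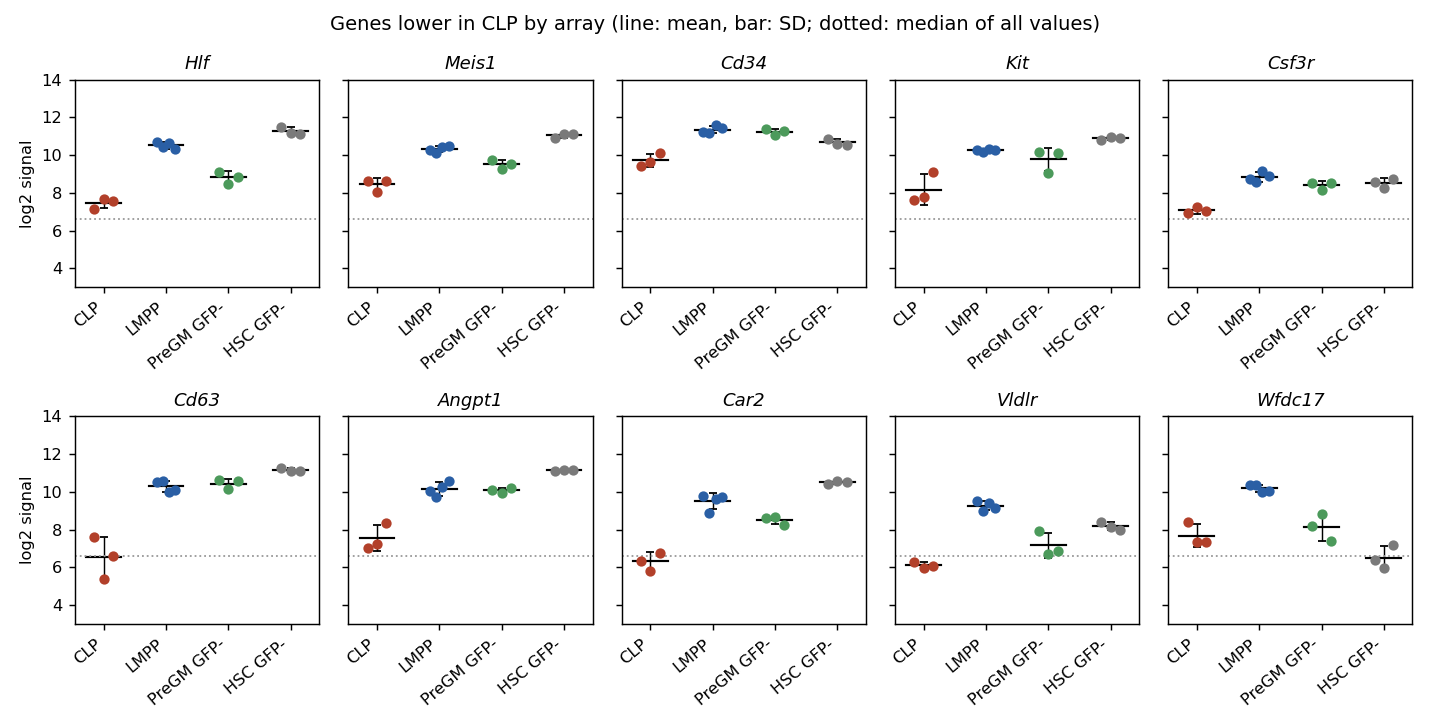
Log2 signal of 10 genes lower in CLP, by array in CLP, LMPP, PreGM GFP- and HSC GFP-, with group means (lines), SDs (bars) and the median of all values (dotted, 6.61). Cd63, Angpt1, Cd34 and Kit stay high in PreGM GFP-, Hlf and Vldlr lie between, and Wfdc17 is highest in LMPP. Kit follows the gates, which are low cKit for CLP and cKit+ for the other populations shown.

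Among transcription factors of myeloid cells and of progenitors in general, 1 of 32 measured members was higher (Klf4) and 3 were lower (Nfe2, Myc and Etv6), with a median difference of -0.05. Nfe2, a factor of megakaryocytes and red cells, gave 6.21, 6.56 and 6.997 on the CLP arrays, against 8.85, 8.81, 8.53 and 8.10 on the LMPP arrays and fell by 1.98 ± 0.22 (SE, adjusted p 5.35e-06). Myc fell by 0.92 ± 0.17 (0.00329) and remained high, at 10.32, 10.72 and 10.85 on the CLP arrays against 11.50, 11.67, 11.61 and 11.43 on the LMPP arrays. Etv6, needed for adult stem cells, fell by 0.77 ± 0.17 (0.013) and lost its call without the first or the second CLP array or the third LMPP array. Cebpa, the factor that opens the neutrophil and monocyte fates, gave 7.55, 8.02 and 7.72 on the CLP arrays and 8.48, 8.53, 8.12 and 8.36 on the LMPP arrays, with no overlap, a difference of -0.61 ± 0.19 (SE) and an adjusted p of 0.141. Its CLP minus PreGM GFP- difference was -1.34 ± 0.20 (SE, adjusted p 0.000334). Spi1, which encodes PU.1, differed by 0.15 (interval -0.48 to 0.77), Runx1 by 0.27 (-0.09 to 0.63), Myb by -0.04 (-0.35 to 0.28), Gfi1 by -0.13 (-0.32 to 0.07) and Fli1 by -0.16 (-0.44 to 0.12). Zeb2, a factor of dendritic and monocytic cells, was above LMPP on every CLP array at 0.60 without passing (adjusted p 0.105).

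The remaining members of that list did not pass either: Cebpb (-0.06), Cebpd (0.29), Cebpe (-0.02), Cebpg (0.23), Runx3 (-0.18), Cbfb (-0.12), Mycl (0.36), Elf1 (0.29), Ets2 (-0.34), Irf1 (-0.07), Irf2 (0.14), Klf2 (0.23), Nr4a1 (0.09), Zeb1 (-0.51), Zfp521 (-0.54), Zbtb7a (-0.16), Bcl6 (0.29) and Sox4 (-0.24) differed by the log2 values given.

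Among myeloid and pleiotropic cytokine receptors 2 of 22 measured members were higher and 2 lower. Csf3r, the receptor for granulocyte colony-stimulating factor, gave 6.91, 7.24 and 7.05 on the CLP arrays, against 8.72, 8.58, 9.16 and 8.90 on the LMPP arrays, and fell by 1.77 ± 0.14 (SE, adjusted p 3.51e-08). Kit fell by 2.09 ± 0.27 (3.21e-05), a gene of the gate. Il6st, the shared signalling chain gp130, gave 10.63, 10.66 and 10.19 on the CLP arrays and 8.85, 8.42, 8.996 and 8.70 on the LMPP arrays and rose by 1.75 ± 0.30 (0.00147), and the other rise was Il18r1. Csf3r was 8.39 ± 0.23 in PreGM GFP- (SD, n = 3), and the CLP minus PreGM GFP- difference was -1.32 ± 0.15 (SE, adjusted p 9.3e-06).

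Few genes of the neutrophil granule list changed at this step. Of 27 measured members Anxa1 and Gstm1, which is a glutathione transferase gene, were lower. None was higher and the median difference was 0.02. Mpo, myeloperoxidase, gave 10.29, 10.96 and 10.91 on the CLP arrays and 11.31, 11.41, 11.53 and 11.07 on the LMPP arrays, below LMPP on every CLP array yet far above the median of all values. The difference was -0.61 ± 0.24 (SE) with an adjusted p of 0.322. PreGM GFP- reached 13.005 ± 0.20 (SD, n = 3), and the CLP minus PreGM GFP- difference was -2.28 ± 0.25 (SE, adjusted p 5.09e-06). Elane differed by 0.54, Prtn3 by -0.47 and Ctsg by -0.82 between CLP and LMPP without passing, and 10 genes of the list were lower in CLP than in PreGM GFP-. Anxa1, annexin A1, gave 7.40, 6.65 and 6.42 on the CLP arrays and 8.44, 8.32, 8.21 and 8.19 on the LMPP arrays and fell by 1.47 ± 0.27 (SE, adjusted p 0.00326).

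**Figure D5:**
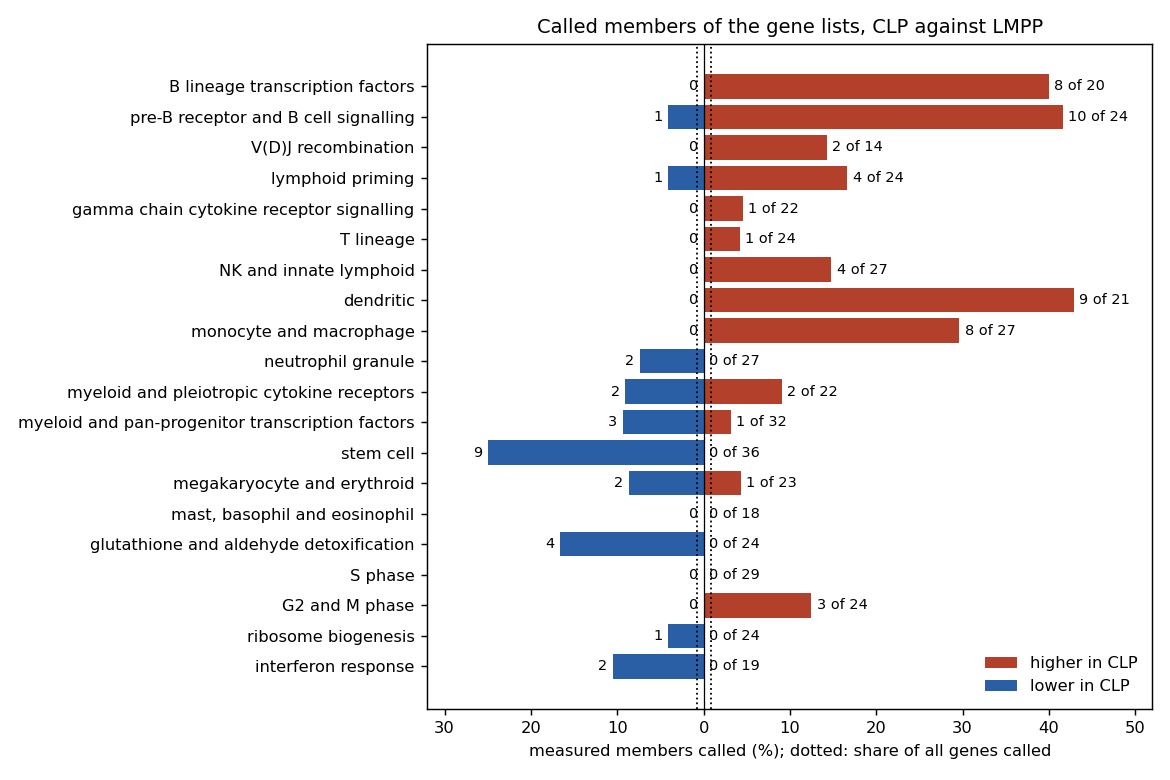
Share of the measured members of each list (%) called higher (red, right) or lower (blue, left) in CLP than in LMPP, with counts beside the bars and the share of all genes called in each direction as dotted lines (0.828% and 0.747%). The B lineage, pre-B receptor, dendritic and monocyte lists have the longest bars to the right, and of the lists drawn the stem cell and glutathione lists have the longest to the left.

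Other lineages were little represented. Of 23 measured megakaryocyte and erythroid genes 1 was higher (Tfrc, the transferrin receptor of growing cells) and 2 were lower (Car2 and Nfe2). Tfrc gave 10.77, 10.02 and 10.17 on the CLP arrays, against 8.48, 8.09, 8.92 and 8.22 on the LMPP arrays, a rise of 1.89 ± 0.20 (SE, adjusted p 2.48e-06). The defining genes Klf1 (6.11 ± 0.06 in CLP and 6.29 ± 0.06 in LMPP), Car1 (6.10 ± 0.07 and 6.14 ± 0.49) and Pf4 (4.55 ± 0.21 and 4.69 ± 0.14) were below the median of all values in both groups. None of 18 measured mast cell, basophil and eosinophil genes passed (2 with an unadjusted p under 0.05), and 15 of them were below that median in both groups. Among 18 stromal and endothelial genes Pecam1, also an adhesion molecule of leukocytes, was higher (0.99, adjusted p 0.0445) with overlap, and Emcn, a sialomucin of endothelium and stem cells, was lower (5.12, 5.03 and 5.38 on the CLP arrays against 7.20, 6.64, 8.07 and 7.41 on the LMPP arrays, -2.15 ± 0.30 (SE), adjusted p 0.000127). Pecam1 lost its call without the first or the second CLP array or the first, the second or the fourth LMPP array. Cdh5 (0.43), Col1a1 (0.18) and Cxcl12 (0.08) did not pass.

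In chemokine receptors and adhesion molecules 2 of 27 measured members were higher and 1 lower. The laminin-binding integrin chain Itga6 fell by 1.40 ± 0.32 (SE, adjusted p 0.0197) and the VLA-4 chain Itga4 rose by 0.85 ± 0.21 (0.043). Itga6 gave 6.87, 6.65 and 6.95 on the CLP arrays, against 7.86, 8.25, 8.44 and 8.36 on the LMPP arrays, and Itga4 10.39, 10.31 and 10.58 on the CLP arrays, against 9.71, 9.19, 9.73 and 9.70 on the LMPP arrays. Neither overlapped. Itga4 lost its call without any array of either group (adjusted p up to 0.144), and Itga6 without the first or the second CLP array or the third or the fourth LMPP array (up to 0.111). Cxcr4, the receptor that keeps progenitors in the marrow, was high in both groups at 11.86 ± 0.23 in CLP and 11.35 ± 0.09 in LMPP, an adjusted p of 0.176.

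Genes of mitosis leaned upward. All 24 measured members of the G2 and M phase list had positive differences, 0.26 to 1.08, with a median of 0.60 against 0.04 over all genes, and 3 passed (Ccna2, Ube2c and Aurkb). Ccna2, which encodes cyclin A2, gave 9.56, 9.78 and 9.27 on the CLP arrays, against 8.62, 7.65, 8.77 and 8.79 on the LMPP arrays, a rise of 1.08 ± 0.24 (SE, adjusted p 0.0153). The LMPP arrays were themselves uneven: the list's median stood 0.63 below the other LMPP arrays on the second and 0.41 above them on the third. Ccna2 lost its call without the first or the second CLP array, Aurkb (0.96) without the second CLP array or the first or the second LMPP array, and Ube2c (0.97) without any CLP array or the first, the second or the third LMPP array. None of 29 measured S phase genes passed (median 0.29, 9 with an unadjusted p under 0.05). Ccnd3, the D cyclin that lymphoid precursors depend on, gave 8.57, 8.76 and 8.75 on the CLP arrays and 7.82, 7.64, 7.99 and 7.50 on the LMPP arrays and rose by 0.96 ± 0.12 (4.08e-05), whereas Rbl2, which encodes the pocket protein p130 of resting cells, fell by 0.73 ± 0.15 (0.00934) and lost its call without the second CLP array. None of 15 measured apoptosis genes passed (4 with an unadjusted p under 0.05), and Bcl2 differed by 0.32 (interval 0.02 to 0.62).

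Detoxification genes fell in part. Of 24 measured glutathione and aldehyde genes 4 were lower, against 0.747% of all genes, and none higher, with a median of -0.06. The glutathione transferase gene Gsta4 gave 6.10, 5.87 and 6.03 on the CLP arrays, against 8.32, 8.35, 8.04 and 7.55 on the LMPP arrays and fell by 2.07 ± 0.28 (SE, adjusted p 6.84e-05). Gstm1, which the neutrophil list also holds, gave 7.72, 7.28 and 6.99 on the CLP arrays and 9.55, 8.95, 8.95 and 9.15 on the LMPP arrays and fell by 1.82 ± 0.34 (0.00311). Mgst1 (-1.16) and Gsto1 (-0.65) passed narrowly. Mgst1 lost its call without any CLP array or the first, the third or the fourth LMPP array, and Gsto1 without any array of either group. In the ribosome biogenesis list 19 of 24 differences were negative with a median of -0.25, and Gnl3, a nucleolar GTPase, was the member that passed (-0.35, adjusted p 0.0401), a call lost without the first or the third CLP array or any of the first 3 LMPP arrays. Of 19 measured interferon response genes Oas2 fell by 1.07 ± 0.16 (SE, adjusted p 0.000228) and Oasl2 by 1.44 ± 0.28 (0.00511), none was higher and the median was -0.26. Oasl2 lost its call without the first CLP array. None of 22 immediate early and stress genes passed (2 with an unadjusted p under 0.05).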

How the data were processed

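The series matrix holds log2 values that the authors deposited, normalised by robust multi-array average (RMA) with the oligo package, per the submitters' processing notes; no version is given in the sources used here, and base 2 is taken from RMA and the range of the values. Probe sets were named through the platform annotation of the sister array, Mouse Gene 1.0 ST. Those naming several genes (1621) or none (12146) were left out, and the probe set with the highest mean stood for each gene. Genes were tested with limma 3.58.1 in R 4.3.3 on log2 values of all 26 arrays, 1 coefficient for each of 8 groups, with no covariate, and p-values were adjusted by Benjamini-Hochberg over 19938 genes. The fit was tested on simulated data. The members, gene lists and tests were chosen with earlier results of these data known.

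By rule, the text names the 15 largest called rises and falls without overlap between the groups' arrays (model genes, small RNAs and receptor segments passed over), up to 6 called genes each way per list, and every measured member of 8 lists of B lineage, cytokine and progenitor regulators and sort markers. Msi2, Mllt3, Procr, Cd209a, Cd209d, Pacsin1, the uncalled genes quoted for other lists and the genes of the closing observations were chosen after their values were seen. Alternatives varied the spread estimate, array weights, variance trend, centring, probe set summary, dim filter, a covariate of Y-linked genes, the replicate block and the arrays left out. The fit without the first and second CLP arrays was added after the data were seen.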

Additional observations from a re-analysis of the deposited data

Results flagged for a closer look

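In the LMPP group, the 4 arrays of each of the 242 named genes were searched for an array that lay far from the other 3 (Dixon's ratio above the 95% critical value), and 17 genes held such an array. Chance gives about 1 in 20 groups, and groups of 3 arrays, CLP among them, were not searched. The second LMPP array accounts for 12 of the 17. It was low for Ccna2 (7.65, with a median of 8.77 on the other LMPP arrays), Ccr9 (5.34 and 6.14), Il7r (5.55 and 6.53), Itga4 (9.19 and 9.71), Itgax (6.17 and 6.51), Kit (10.18 and 10.3) and Tyk2 (5.87 and 6.4). It was high for Cd74 (6.94 and 6.41), Ngp (7.96 and 5.88), Nr4a1 (6.82 and 6.14), S100a9 (10.06 and 6.42) and Socs2 (6.94 and 6.51). The first LMPP array was high for Mpeg1 (8.58 and 8.31) and low for Prkdc (8.15 and 8.29) and Satb1 (10.71 and 11.09), and the fourth was high for Cd300c (7.68 and 7.46) and Pik3r1 (9.98 and 9.43). The gaps for Kit, Prkdc and Mpeg1 were small against the levels.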

How the results depend on the processing

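The counts against LMPP (165 higher, 149 lower) were 69 and 96 with the spread from the 7 CLP and LMPP arrays alone, 301 and 280 with array weights, 92 and 96 among genes differing by at least 1 log2 unit, and 71 and 47 with the third CLP array as the only CLP array, a fit chosen after seeing the data. Leaving out 1 array gave 108 to 210 higher and 91 to 167 lower, the lowest of both without the second CLP array. The counts against PreGM GFP- (148 and 157) were 35 and 57 with the spread from those 6 arrays, 63 and 72 with array weights and 87 and 100 at 1 log2 unit. Leaving out 1 array gave 98 to 162 higher and 99 to 207 lower, the lowest without the third PreGM GFP- array (higher) and the first (lower), and the third CLP array as the only CLP array gave 86 lower. The other alternatives moved no count by over 1.5 times, and the causes were not tested. Of 101 named genes called, 63 kept the call whichever CLP or LMPP array was left out, and 62 kept it with the spread from the compared arrays alone. Cd300c turned to -0.0446 with the third CLP array as the only CLP array. Of the named genes not called, 15 of 141 passed in at least 1 alternative. Whether the replicate numbers pair the samples is not settled, since the best match had the same number for some arrays only. Same-numbered CLP and LMPP arrays deviated together at -0.003, 0.106 and 0.129. CLP arrays 2 and 3 correlated best with the LMPP array of the same number, and CLP array 1 with LMPP array 4 (0.023). Against PreGM GFP- the same-numbered values were 0.045, 0.048 and 0.162. There the same number was the best match for CLP arrays 1 and 3, but not for CLP array 2 (0.057 with PreGM GFP- array 1). The fit with the replicate block called 144 higher and 144 lower against LMPP and 135 and 150 against PreGM GFP-. Of the 101 named genes called, 89 kept the call with the replicate block and 12 lost it. The number of arrays limits the precision.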

Other observations

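Some members of a pair of gene families changed, and the families and genes are named here after their values were seen. Of 7 measured interferon-induced membrane protein genes (Ifitm), 3 were lower in CLP, against 0.747% of all genes, and none higher. Ifitm1 gave 9.02, 8.99 and 9.73 on the CLP arrays, against 11.67, 11.53, 11.25 and 11.19 on the LMPP arrays, a difference of -2.17 ± 0.18 (SE, limma adjusted p 4.92e-08). Ifitm2 differed by -1.04 ± 0.21 (0.00749) and Ifitm3 by -1.22 ± 0.12 (1.43e-06). Without the third CLP array Ifitm2 no longer passed (-0.74, adjusted p 0.0633). Ifitm1, Ifitm2 and Ifitm3 all stayed high in PreGM GFP-, at 11.14 ± 0.19, 11.37 ± 0.14 and 11.54 ± 0.15 (SD, n = 3). These 3 neighbouring genes are similar in sequence, so probes may not separate them fully. Of 8 measured guanylate-binding protein genes (Gbp), a family that interferon gamma induces, 3 were higher in CLP, against 0.828% of all genes, and none lower. Gbp4 gave 7.60, 7.68 and 6.83 on the CLP arrays, against 5.26, 5.67, 5.56 and 6.11 on the LMPP arrays, a difference of 1.72 ± 0.22 (3.89e-05), and Gbp8 differed by 1.80 ± 0.37 (0.00798) and Gbp9 by 1.70 ± 0.25 (0.00023). Without the second CLP array Gbp8 no longer passed (adjusted p 0.107). They too are close paralogs.

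A few genes peaked in LMPP among the 4 populations read. Ccl3, a chemokine, gave 5.96, 5.88 and 6.11 on the CLP arrays, against 8.47, 8.20, 8.29 and 8.30 on the LMPP arrays, a difference of -2.33 ± 0.19 (SE, adjusted p 4.92e-08), and averaged 6.29 in PreGM GFP- and 6.21 in HSC GFP-. Wfdc18, a whey acidic protein family member like Wfdc17, gave 5.94, 5.73 and 6.32 on the CLP arrays and 8.19, 7.76, 7.42 and 7.09 on the LMPP arrays (-1.62 ± 0.20, adjusted p 1.58e-05), with 6.07 in PreGM GFP- and 5.79 in HSC GFP-.

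Transcripts of mature neutrophils stood out on single arrays of both groups. Ngp gave 6.29, 9.75 and 7.25 on the CLP arrays and 5.80, 7.96, 5.88 and 6.17 on the LMPP arrays, and S100a9 gave 7.02, 8.50 and 7.57 on the CLP arrays and 6.42, 10.06, 6.33 and 6.42 on the LMPP arrays. The second array of each group was the highest for both genes. Ccr2, a monocyte chemokine receptor, gave 9.01, 8.66 and 6.02 on the CLP arrays and 6.42, 5.998, 6.09 and 5.97 on the LMPP arrays and did not pass (adjusted p 0.0532). Ms4a6c gave 10.90, 11.10 and 7.56 on the CLP arrays and 8.40, 7.71, 8.70 and 8.02 on the LMPP arrays, and the third CLP array was below every LMPP array.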
